A study of Homo sapiens with 6 samples.

Results

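The IFIT family, the interferon-induced proteins with tetratricopeptide repeats, was examined in HT29 cells after knockdown of ALDOA. Its members were taken by gene symbol as the IFIT genes of the cluster on chromosome 10, which are IFIT1, IFIT1B, IFIT2, IFIT3 and IFIT5. All 5 symbols had a row among the 28278 genes of the deposited counts, and 4 of them passed the filter on low counts that left 15307 genes to be tested. IFIT1B did not pass it. The family was chosen by its read counts in these same libraries, whose difference between the groups was already known, so the levels and fold changes of its members are given as a description without a test.

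IFIT proteins bind foreign RNA in the cytoplasm and are among the most strongly interferon-induced products of many cell types. IFIT1 recognises mRNA caps that lack ribose methylation and blocks their translation, and it acts in a complex with IFIT2 and IFIT3, in which IFIT3 stabilises IFIT1. IFIT5 works on its own and binds the end of RNAs that carry triphosphate or monophosphate groups. The genes are switched on by interferon-activated transcription factors such as STAT2 and IRF9, or directly by IRF3, through interferon-stimulated response elements in their promoters.

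HT29 is an established human colorectal adenocarcinoma line of epithelial form. The siALDOA group (genotype label ALDOA KD) received an siRNA against ALDOA, which encodes the glycolytic enzyme aldolase A, and the siControl group (genotype label WT) a scrambled siRNA. RNA was taken after 48 h from 3 samples of each group, which the titles call biological replicates of the same line. The deposited values are raw read counts per gene from paired-end RNA-Seq, and the libraries held 27277538 to 28690395 counts with siALDOA and 31899091 to 33237914 counts with siControl.

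The knockdown was visible in every library. ALDOA was at 280 to 305 CPM with siALDOA and at 592 to 668 CPM with siControl, where CPM is TMM-scaled read counts relative to library size, and the log2 fold change, siALDOA over siControl here and throughout, was -1.13 (standard error 0.060). Over all tested genes 4.36% were called higher and 5.29% were called lower with siALDOA at an adjusted p < 0.05 (edgeR's quasi-likelihood test with Benjamini-Hochberg adjustment), and the median log2 fold change was 0.0016. These are 668 and 810 genes, against 896 and 279 with library totals only as the scaling. Ribosomal RNA took 13.1% of the counts of siALDOA replicate 1 and 17.4% of those of siControl replicate 1, against 7.71% to 15.3% in the other 4 libraries. Of 10 markers of colonic epithelium 9 were tested, and their summed level was 8387 to 8622 CPM with siALDOA and 9198 to 9664 CPM with siControl. KRT18, an epithelial keratin of that list, was called lower (log2 fold change -0.28, adjusted p = 0.0152), and 8 of the 9 had a negative log2 fold change. LGALS4, a marker of the same list, had 0 counts in every library, as did EIF3K, which every cell uses, so a gene listed at 0 here cannot be taken as silent. Of 10 leukocyte markers, CD3E, MS4A1, TYROBP and CLEC4C were at 0 in every library and PTPRC had 1 count in 1 library. The summed level of that list was 16.7 to 17.9 CPM with siALDOA and 13.1 to 15.2 CPM with siControl, most of it CD14, which was called higher (adjusted p = 0.0485), and the part of these cell types in the results was not tested. The list of 7 fibroblast and endothelial markers summed to 2.00 to 2.84 CPM and 1.90 to 2.12 CPM.

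The 5 genes lie side by side on chromosome 10 (hg38), all on the plus strand, in the order IFIT2, IFIT3, IFIT1B, IFIT1 and IFIT5. In GENCODE, IFIT2 (ENSG00000119922) spans 89283694 to 89309271, IFIT3 (ENSG00000119917) 89327307 to 89377473 and IFIT1B (ENSG00000204010) 89378056 to 89385205. IFIT1 (ENSG00000185745) spans 89392546 to 89406487 and IFIT5 (ENSG00000152778) 89414568 to 89421605. Each canonical transcript had 2 exons, with the first 5 coding bases in exon 1 and the rest of the coding sequence in exon 2. The proteins had 472 (IFIT2), 474 (IFIT1B), 478 (IFIT1), 482 (IFIT5) and 490 (IFIT3) residues. The aligned coding bases of the pairs were 61.7% to 79.0% identical, with IFIT1 and IFIT1B at 79.0%, IFIT2 and IFIT3 at 73.0%, and IFIT2 and IFIT5 at 61.7%. Reads of one copy could be counted on another where the copies are identical over a read. Of all stretches of 150 bases in the 5 canonical transcripts, 0 occurred in a GENCODE transcript of another gene. Of 4253 stretches of 50 bases in IFIT1, 54 occurred in another gene and 38 of these in IFIT1B, whereas IFIT2 and IFIT5 shared 0. IFIT3 shared 94 of 2341, none of them with another member.

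The promoters are shown to look for the letters of the response element through which interferon signalling can reach IFIT genes. Of the 5 members IFIT1, IFIT1B, IFIT3 and IFIT5 were matched by symbol in the RefSeq promoter windows (GRCh38.p14) and IFIT2 was not. The windows run from 250 bases before to 50 bases after a gene start. The 160 bases before the start are printed 5′ to 3′ on the plus strand, for IFIT1 at chr10:89392463-89392622, for the upstream start of IFIT3 at chr10:89327837-89327996, for IFIT5 at chr10:89414408-89414567 and for IFIT1B at chr10:89377896-89378055. Capitals mark matches to the core of the response element, TTTCNNTTTC, or to its reverse complement GAAANNGAAA, with overlapping matches allowed.
IFIT1: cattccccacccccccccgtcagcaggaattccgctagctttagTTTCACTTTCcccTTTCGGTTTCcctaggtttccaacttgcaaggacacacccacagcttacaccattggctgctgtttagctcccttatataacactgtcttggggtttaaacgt
IFIT3: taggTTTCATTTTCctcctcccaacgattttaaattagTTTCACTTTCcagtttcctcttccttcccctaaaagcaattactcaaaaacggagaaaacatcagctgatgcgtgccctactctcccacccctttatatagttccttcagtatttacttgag
IFIT5: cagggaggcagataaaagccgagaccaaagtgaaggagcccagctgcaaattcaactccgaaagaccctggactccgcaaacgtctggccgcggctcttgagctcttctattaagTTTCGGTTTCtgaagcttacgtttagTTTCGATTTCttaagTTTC
IFIT1B: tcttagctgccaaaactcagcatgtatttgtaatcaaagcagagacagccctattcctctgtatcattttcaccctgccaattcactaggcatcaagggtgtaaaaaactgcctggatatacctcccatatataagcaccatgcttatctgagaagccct

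The IFIT1 window held 2 matches, at positions -116 to -107 and -103 to -94 from the start. The IFIT3 window held 2 matches, at -156 to -147 and -122 to -113, and the window of a further IFIT3 start listed downstream also held 2. IFIT5 had 3 matches, the last of which runs across the gene start, so only its first bases are printed. IFIT1B had 0. The matches in the windows of IFIT1, IFIT3 and IFIT5 were in the TTTC orientation. Of all 35116 promoter windows of the same length, 3.57% held at least 1 match, 0.259% held at least 2 and 0.037% held at least 3. A match is a description of the letters and not a site, and its absence says only that these letters are not in this window.

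IFIT1, the cap sensor, had the highest level of the family in both groups. Its counts were 12359, 15651 and 14886 in siALDOA replicates 1 to 3 and 4088, 4909 and 4903 in siControl replicates 1 to 3. Scaled for depth, this was 444, 521 and 524 CPM against 131, 161 and 149 CPM. Each siALDOA library was above each siControl library, and the lowest siALDOA library was 2.76 times the highest siControl library. IFIT1 averaged 496 ± 45.3 CPM in the siALDOA group and 147 ± 14.97 CPM in the siControl group (SD, n = 3 each). The fitted log2 fold change was 1.76 with a standard error of 0.076, which is 3.38-fold. IFIT1 was the 17th of the 15307 tested genes by log2 fold change.

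IFIT2 and IFIT3, the partners of IFIT1 in the complex, were higher with siALDOA by nearly the same fold. IFIT2, which has also been linked to the death of cells in which it is overproduced, was at 91.5, 123 and 118 CPM with siALDOA. With siControl it was at 33.3, 42.0 and 36.6 CPM, and the groups did not overlap. It averaged 111 ± 17.1 against 37.3 ± 4.39 CPM (SD, n = 3 each), and the fitted log2 fold change was 1.57 with a standard error of 0.097. IFIT3, the stabiliser of IFIT1, was at 151, 184 and 183 CPM with siALDOA and at 49.96, 64.7 and 59.9 CPM with siControl, again without overlap. IFIT3 averaged 173 ± 18.9 against 58.2 ± 7.51 CPM (SD, n = 3 each), and its log2 fold change was also 1.57, with a standard error of 0.087. The fitted folds were 2.98 for IFIT2 and 2.97 for IFIT3.

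IFIT5 moved least of the 4 tested members. It was at 96.7, 102 and 110 CPM with siALDOA and at 60.4, 60.0 and 63.2 CPM with siControl. The groups did not overlap, but the lowest siALDOA library was only 1.53 times the highest siControl library. IFIT5 averaged 103 ± 6.88 against 61.2 ± 1.79 CPM (SD, n = 3 each), and its log2 fold change was 0.75 with a standard error of 0.065, which is 1.68-fold. By log2 fold change IFIT5 was the 346th tested gene, whereas IFIT2 and IFIT3 were the 27th and the 28th.

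IFIT1B, the closest copy of IFIT1 by coding sequence, was barely counted. It had 6, 1 and 2 counts with siALDOA and 1, 6 and 0 counts with siControl. The groups overlapped, their sums were 9 and 7 counts, and no fold change can be given at this depth.

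**Figure D1:**
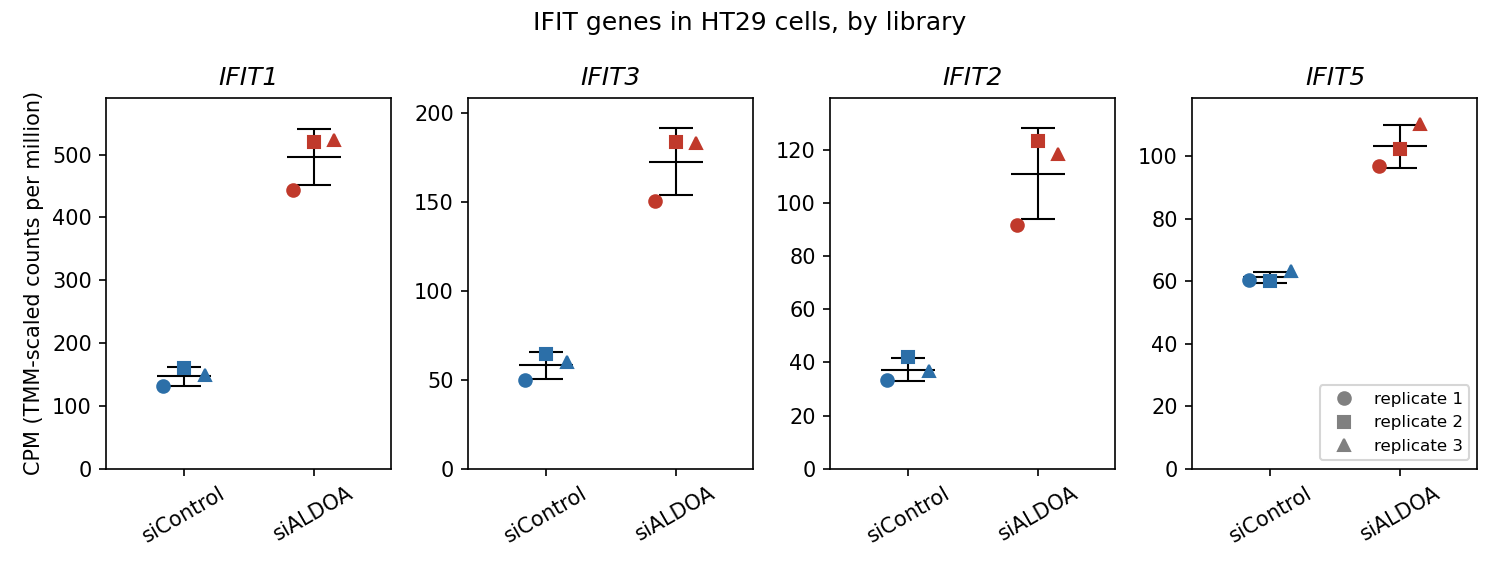
Level of the 4 tested IFIT genes in each library, in CPM (TMM-scaled read counts relative to library size) on linear axes that start at 0 and differ between panels. Points are libraries, horizontal lines are group means and bars are SDs (n = 3). All 3 siALDOA libraries lie above all 3 siControl libraries in each panel, with the narrowest gap in IFIT5 (96.7 against 63.2 CPM).

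All 4 tested members were called higher with siALDOA in the fit across all genes, against 4.36% of the tested genes, and all 4 had groups that did not overlap in that direction, against 13.1% of the tested genes. Since the same contrast led to the choice of the family, nothing is read from these counts. In bulk RNA a higher level per cell and a larger number of expressing cells cannot be told apart.

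Levels were compared between members per kilobase of the canonical transcript, of 4302 bases for IFIT1, 3393 for IFIT2, 2390 for IFIT3 and 4029 for IFIT5. With siControl, IFIT1 was at 34.2 ± 3.48 CPM per kilobase (SD, n = 3), IFIT3 at 24.3 ± 3.14, IFIT5 at 15.2 ± 0.445 and IFIT2 at 10.996 ± 1.29, and no neighbours in this order overlapped. With siALDOA, IFIT1 was at 115 ± 10.5 CPM per kilobase (SD, n = 3), IFIT3 at 72.2 ± 7.90, IFIT2 at 32.7 ± 5.03 and IFIT5 at 25.6 ± 1.71. IFIT2 and IFIT5 had thus changed places, although their libraries overlapped, with IFIT2 from 26.98 to 36.3 and IFIT5 from 24.0 to 27.4 CPM per kilobase. The order depends on the length used. Per kilobase of all annotated exons, IFIT5 was above IFIT3 with siControl (14.0 against 11.5 on average), while IFIT1 remained the highest in both groups. Which exons the authors counted is not given in the sources used here.

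IFIT1 held a larger share of the family's counts with siALDOA, and IFIT5 a smaller one. The 5 genes together took 0.0774% to 0.0975% of all counts with siALDOA and 0.0258% to 0.0319% with siControl. Of the counts on the family, 56.0% to 56.7% fell on IFIT1 with siALDOA and 47.7% to 49.1% with siControl. IFIT5 took 10.99% to 12.3% with siALDOA and 18.3% to 22.0% with siControl. IFIT3 held 19.2% to 19.7% against 18.2% to 19.7%, and IFIT2 held 11.7% to 13.3% against 11.9% to 12.8%. The ranges of the groups were apart for IFIT1 and IFIT5 and overlapped for IFIT2 and IFIT3. The 95% Wilson interval of the IFIT5 share, which covers counting error only, was 11.9% to 12.8% in siALDOA replicate 1 and 17.5% to 19.1% in siControl replicate 2, the libraries nearest to each other.

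Ratios within a library need no scaling for depth. There were 4.59, 5.10 and 4.75 counts of IFIT1 per count of IFIT5 with siALDOA and 2.17, 2.68 and 2.35 with siControl, without overlap. The ratio of IFIT1 to IFIT3 moved less, from 2.49 to 2.62 with siControl up to 2.84 to 2.95 with siALDOA, and that of IFIT1 to IFIT2 from 3.83 to 4.07 up to 4.23 to 4.85. Neither of these overlapped between the groups. The ratio of IFIT3 to IFIT2 averaged 1.56 in both groups (SD 0.0793 with siALDOA and 0.0701 with siControl, n = 3), and here the groups overlapped. These ratios were not tested, since they come from the contrast by which the family was chosen.

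**Figure D2:**
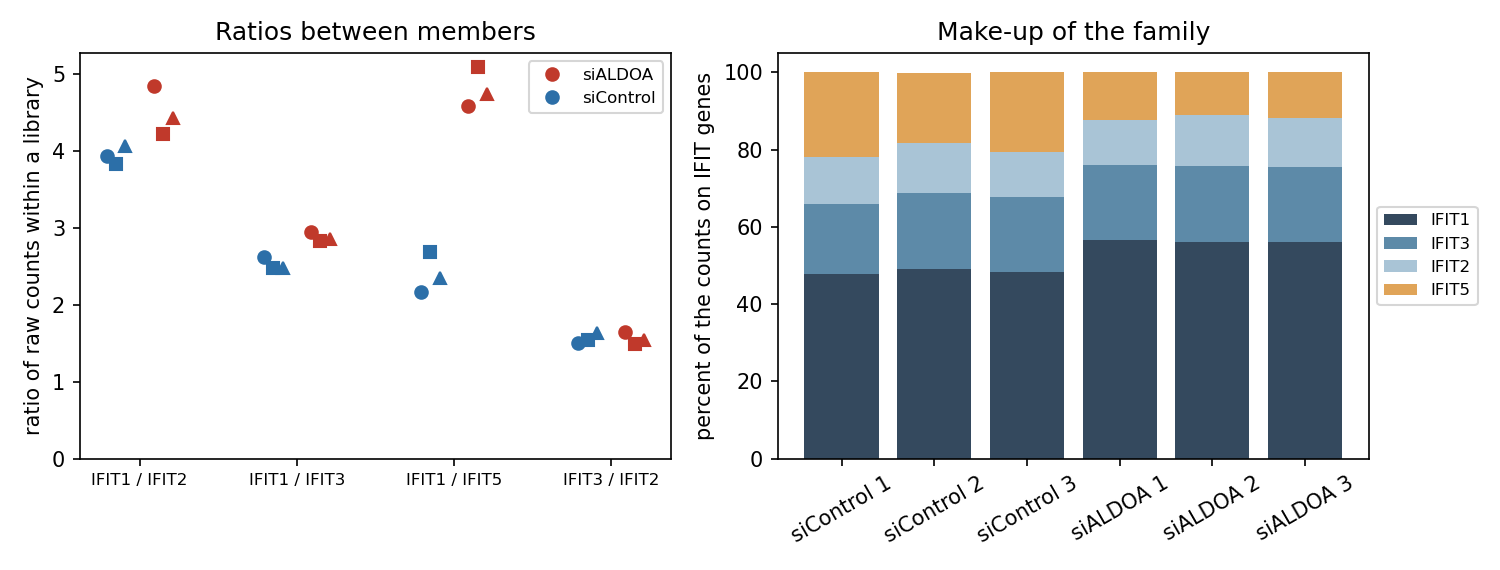
Left, ratios of raw counts between members within each library, with replicates 1, 2 and 3 as circles, squares and triangles. Right, percent of the counts on IFIT genes that fell on IFIT1, IFIT3, IFIT2 and IFIT5 in each library (IFIT1B, with at most 6 counts, is not drawn). The ratio of IFIT1 to IFIT5 lies at 2.17 to 2.68 with siControl and 4.59 to 5.10 with siALDOA, while that of IFIT3 to IFIT2 overlaps.

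The order of the libraries within each group was compared between members as a description. Of the siALDOA libraries, replicate 1 had the lowest level of IFIT1, IFIT2, IFIT3 and IFIT5, at 0.16, 0.27, 0.19 and 0.090 below the group mean on the log2 scale. In the siControl group, replicate 1 was lowest for IFIT1, IFIT2 and IFIT3, at 0.16, 0.16 and 0.21 below the mean. For IFIT5 it was replicate 2 that was lowest, and the 3 siControl libraries differed by only 0.077. IFIT2 had the widest range in the siALDOA group (0.43) and IFIT3 in the siControl group (0.37). Both libraries numbered 1 also had the largest share of ribosomal RNA of their group, and its part in these levels was not tested. ALDOA was at 283, 305 and 280 CPM in siALDOA replicates 1 to 3, nearly the same in replicates 1 and 3. Within the siControl group, replicate 1 was also the lowest for ALDOA, at 592 CPM against 637 and 668 CPM in replicates 2 and 3. A relation between the ALDOA and IFIT levels within a group was not tested.

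Genes around the cluster were examined next, since the 5 members are neighbours. Of 12 genes listed from either side, 9 were tested, 1 was called higher and 0 lower, against 4.36% and 5.29% of all tested genes, and their median log2 fold change was 0.16. The gene called was LIPA, the lysosomal acid lipase, at 89.9 to 93.1 CPM with siALDOA and 65.6 to 65.7 CPM with siControl (log2 fold change 0.48, standard error 0.059, adjusted p = 1.33e-05). The levels of LIPA did not overlap and were nearly the same in each siControl library. LIPA runs on the other strand from 89213569 to 89414557, so IFIT2, IFIT3, IFIT1B and IFIT1 lie inside its span. The outermost annotated start of LIPA, at 89414557 on the minus strand, and the start of IFIT5 at 89414568 on the plus strand face away from each other, 11 bases apart. The canonical LIPA transcript has 2496 bases. GENCODE places 460 exon bases of LIPA inside IFIT2 and 506 inside IFIT3. Of these, 65 and 94 fall on annotated IFIT exons, all outside the exons of the canonical IFIT transcripts. The strand setting of the counts is not stated by the authors, so reads of LIPA and of IFIT2 or IFIT3 over these bases cannot be told apart.

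The other neighbours did not pass the test. At lower coordinates than LIPA, the death receptor gene FAS was at 0.35 on the log2 scale (standard error 0.17, adjusted p = 0.212). ACTA2, the smooth muscle actin, was at 0.73 (standard error 0.41, adjusted p = 0.300) and STAMBPL1, a deubiquitinase, at 0.16. LIPM was at -0.60 and ANKRD22 at -0.17. CH25H, an oxysterol-producing enzyme gene that is itself interferon-stimulated in other cells, had 0 counts in every library. Past IFIT5, SLC16A12 had at most 8 counts and was not tested. PANK1, a pantothenate kinase, was at 0.0010 (standard error 0.087), the kinesin gene KIF20B at 0.079 and RPP30 at 0.23, and HTR7 had 0 counts. Of the promoter windows of the 12 neighbours, only that of ACTA2 held the response element core. The windows are those of RefSeq starts. The outermost GENCODE start of LIPA, at 89414557, lies inside the IFIT5 match at 89414549 to 89414558. The IFIT5 match at 89414523 to 89414532 lies near it. Of 9 further genes of the region outside the list, all of them noncoding, 2 were tested and 0 called, and ACTA2-AS1, named after its value was seen, was at 1.06 (standard error 0.49, adjusted p = 0.188), with reads that cannot be told apart from those of ACTA2 where the genes overlap. LIPA, whose span overlaps the cluster, was at 0.48, and PANK1, the nearest tested listed gene past IFIT5, was at 0.0010. Both were below the 0.75 to 1.76 of the IFIT genes.

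**Figure D3:**
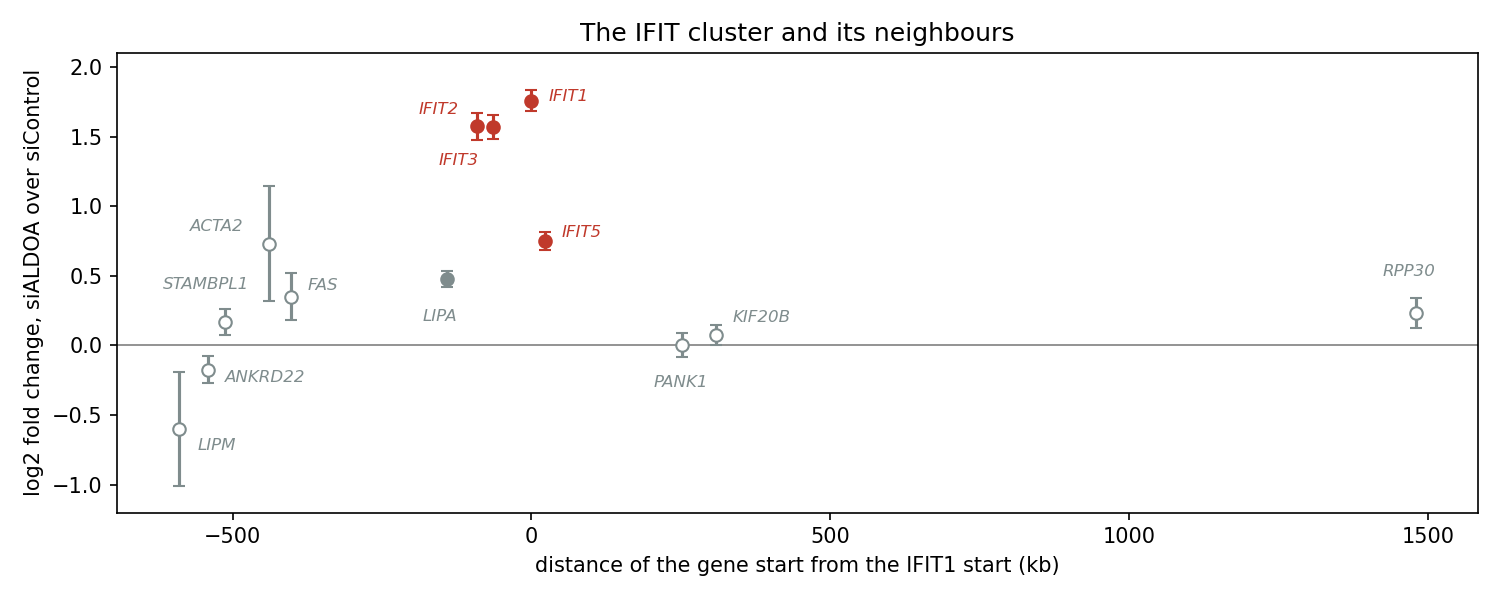
Log2 fold change (siALDOA over siControl) of the tested genes in and around the cluster, against the distance of the canonical transcript start from that of IFIT1 in kilobases. LIPA is drawn at -141 by this start, although its outermost annotated start lies next to IFIT5. IFIT genes are red and neighbours grey, bars are standard errors, and filled points were called at an adjusted p < 0.05. The 4 IFIT genes lie from 0.75 to 1.76, and LIPA at 0.48 is the only filled neighbour.

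The signalling genes upstream of the family were taken from a list of 21 sensors, adaptors, kinases, receptors and transcription factors, all of them tested. Of these, 9 were called higher and 1 lower, against 4.36% and 5.29% of all tested genes, and the median log2 fold change was 0.27. STAT2, a transcription factor of the interferon response, was at 72.9, 86.4 and 84.3 CPM with siALDOA and 46.1, 47.3 and 48.5 CPM with siControl (log2 fold change 0.78, standard error 0.071, adjusted p = 1.63e-07). IRF9, its partner that recognises the response element, rose by only 0.27 (standard error 0.076, adjusted p = 0.0253). IRF9 lost its call when any single library other than siALDOA replicate 1 was left out, with an adjusted p from 0.0518 without siControl replicate 2 to 0.161 without siALDOA replicate 2.

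The RNA sensors RIG-I and MDA5 were also called higher. RIG-I, listed under its older symbol DDX58, was at 134, 147 and 151 CPM with siALDOA and 60.8, 64.2 and 62.3 CPM with siControl (log2 fold change 1.21, standard error 0.063, adjusted p = 6.02e-11). IFIH1, which encodes the sensor MDA5, rose by 1.25 (standard error 0.069, adjusted p = 1.28e-10). DHX58, IRF7, STING1 and IRF1, named after their values were seen, were called higher too. MAVS, the adaptor of both sensors, was at 207 to 226 CPM with siALDOA and 245 to 268 CPM with siControl (log2 fold change -0.22, standard error 0.058, adjusted p = 0.0185). MAVS lost this call with library totals only (adjusted p = 0.315) and without siControl replicate 1 or 3 (adjusted p = 0.0783 and 0.0782). IRF3, which can act on IFIT promoters without interferon, was at 0.092 (standard error 0.057, adjusted p = 0.358). The receptor and kinase genes IFNAR1, IFNAR2, IFNLR1, IL10RB, JAK1, TYK2, TBK1 and IKBKE were named here for their role and did not pass the test, with log2 fold changes from -0.15 (JAK1) to 0.35 (IFNLR1). As for the IFIT genes, siALDOA replicate 1 was the lowest siALDOA library for each of the 9 genes called higher, and siControl replicate 1 the lowest siControl library for 7 of them.

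Of 4 feedback inhibitors of interferon signalling, 3 were tested, 2 were called higher and 0 lower, against 4.36% and 5.29% of all tested genes. ISG15, a ubiquitin-like modifier that also stabilises USP18, rose by 1.18 (standard error 0.076, adjusted p = 8.53e-10). USP18, which removes ISG15 and blocks the interferon receptor, rose by 0.70 (standard error 0.099, adjusted p = 7.39e-05). SOCS1 was at 0.57 (standard error 0.32, adjusted p = 0.297) and SOCS3 had at most 12 counts in any library. Of 22 interferon genes, 11 were at 0 in every library and 20 were below the filter. The other 2, IFNL1 and IFNE, were called higher at adjusted p = 0.0266 and 0.0287, against 4.36% of all tested genes. IFNL1 was counted 16, 17 and 13 times after siALDOA but only 5, 4 and 3 times after siControl, so it passed the filter only through the group in which it was higher, and nothing is read from its call. IFNL1, a type III interferon, was at 0.458 to 0.575 CPM with siALDOA and 0.0910 to 0.160 CPM with siControl. The IFNL1 call was lost whichever library was left out (adjusted p from 0.0552 to 0.137) and without the filter on low counts (adjusted p = 0.0897), and that of IFNE without siALDOA replicate 1, siControl replicate 2 or siControl replicate 3 (adjusted p from 0.0906 to 0.158). IFNL2 and IFNL3, below the filter and named after their values were seen, had 3, 11 and 17 and 4, 9 and 10 counts with siALDOA. With siControl they had 0 counts in each library and 0, 0 and 2 counts, and these near-identical copies may share reads. IFNB1, also below the filter and named after its values were seen, had 2, 5 and 6 counts with siALDOA. It had 0 counts in each siControl library. The rest of the interferon genes below the filter overlapped between the groups, and nothing is read from counts this low.

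IFIT1 tells host from foreign mRNA by the methyl groups of the cap, so the enzymes that build the cap were listed too. Of 6 such genes, all tested, 1 was called higher and 0 lower, against 4.36% and 5.29% of all tested genes, and the median log2 fold change was -0.047. The gene called was CMTR1, which methylates the ribose of the first nucleotide and so makes the cap that IFIT1 binds poorly. CMTR1 was at 53.3, 64.5 and 60.5 CPM with siALDOA and 44.6, 44.99 and 42.2 CPM with siControl (log2 fold change 0.44, standard error 0.074, adjusted p = 5.37e-04). The call of CMTR1 held in every alternative fit. CMTR2, which methylates the second nucleotide, was at -0.12 (standard error 0.058, adjusted p = 0.213). The capping enzyme RNGTT, the guanine methyltransferase RNMT, its activator RAMAC and PCIF1 ranged from -0.080 to 0.055 and did not pass.

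IFIT1 and IFIT2 can also bind eIF3, the initiation factor that brings mRNA to the ribosome. Of its 13 subunit genes 12 were tested, with 1 called higher and 1 lower, against 4.36% and 5.29% of all tested genes. Their median log2 fold change was -0.052. EIF3F rose by 0.22 (standard error 0.061, adjusted p = 0.0227) and EIF3J fell, at -0.19 on the log2 scale (standard error 0.056, adjusted p = 0.0343). EIF3J lost its call in 5 of the 6 fits without 1 library, and EIF3F in 3 of them. EIF3J also lost its call with library totals only (adjusted p = 0.420). The other 10 tested subunits did not pass and ranged from -0.14 to 0.053.

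**Figure D4:**
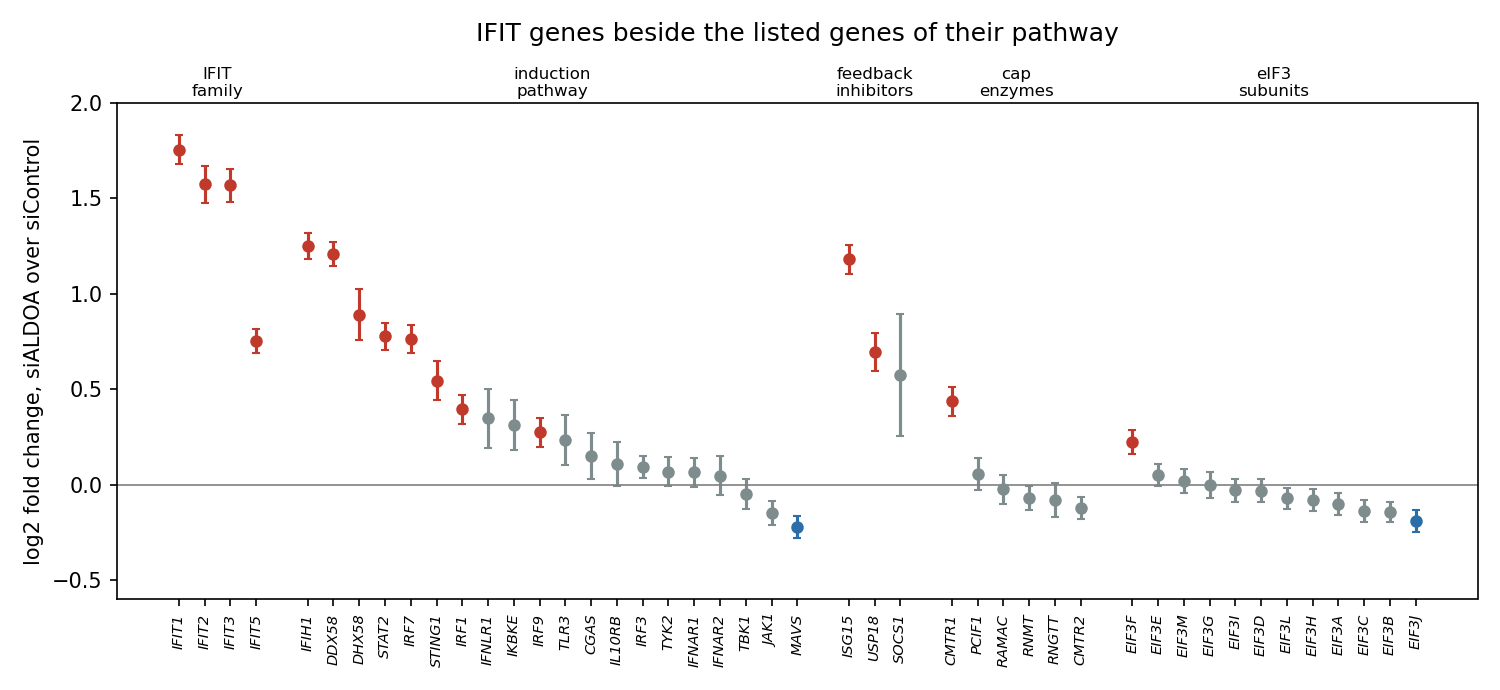
Log2 fold change (siALDOA over siControl) with standard errors for the tested IFIT genes and the tested genes of 4 lists, ordered by value within each list. Red points were called higher and blue points lower at an adjusted p < 0.05, and grey points were not called. The induction list is drawn without 1 gene that is not reported here and shows 8 red points and 1 blue point, the cap enzymes hold 1 red point, and the eIF3 subunits hold 1 red and 1 blue point.

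To place the members among all genes, the profile of each was compared with that of 13723 others at 1 CPM or more, as the root mean square difference over the 6 libraries in log2 CPM relative to the siControl mean. This is a description of these 6 libraries and carries no test. The genes nearest to IFIT1 were UBE2L6, the ISG15-conjugating enzyme, at 0.088, IFI44L at 0.093 and the peptide transporter gene SLC15A3 at 0.098. IFIT2 was nearest to OAS2, an oligoadenylate synthetase, at 0.052, followed by IFIT3 at 0.056 and the nucleotide kinase gene CMPK2 at 0.086. For IFIT3 the order was IFIT2 at 0.056, IFI44 at 0.080 and OAS2 at 0.094. IFIT2 and IFIT3 thus lay closer to each other than either lay to IFIT1, from which they differed by 0.15 and 0.14. IFIT5 was nearest to DTX3L, a ubiquitin ligase, at 0.025, ZCCHC2 at 0.045 and STAT2 at 0.057, and it differed from the other members by 0.59 to 0.72. DTX3L was at 377, 397 and 418 CPM with siALDOA and 236, 237 and 238 CPM with siControl. The order of its libraries was that of IFIT5 in the siALDOA group but not in the siControl group.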

How the data were processed

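HT29 cells were profiled by RNA-Seq in 6 libraries, grouped as 3 siALDOA and 3 siControl by their titles. The authors mapped paired-end reads to hg38 (tophat2) and used gfold to count reads by gene symbol. The deposited values are these raw counts, not normalized. The gene annotation, strand setting and treatment of reads with several matches are not given in the sources used here.

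The counts were analysed in R 4.3.3 with edgeR 4.0.16 (filterByExpr, TMM normalization, quasi-likelihood F-test, no covariate, Benjamini-Hochberg adjustment over all tested genes, threshold 0.05). CPM used TMM factors, and log2 CPM a prior count of 2. The standard error was taken as the size of the log2 fold change over the square root of F. Alternatives were limma 3.58.1 (voom), DESeq2 1.42.0, other scalings, filters and thresholds, a replicate block and leaving out each library, and the fit was tested on simulated data. Gene structures, coordinates and shared stretches came from GENCODE release 44 on hg38. Coding sequences were aligned with biopython 1.88 and intervals came from scipy 1.17.1.

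The family, the gene lists and the alternatives were chosen with earlier results of these data known. Named genes were ALDOA, the members, the neighbours, STAT2 and IRF9, of the other lists up to 4 called genes per direction with the smallest p, and for each tested member the 3 genes of most similar profile. Other genes were named for their role in a list or after their values were seen. The 27277538 to 33237914 counts per library leave genes of a few counts, such as IFIT1B, without a usable fold change. One gene that the rule would name is not reported here, although counts and medians over lists include it.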

Additional observations from a re-analysis of the deposited data

How the results depend on the processing

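The log2 fold changes of IFIT1, IFIT2, IFIT3 and IFIT5 were positive in all 16 alternative fits, which use the contrast by which the family was chosen and so give no independent support. The highest values of IFIT1 and IFIT5, 1.83 and 0.83, came from library totals only, and their lowest, 1.68 and 0.70, from leaving out siControl replicate 1 and siALDOA replicate 3. Leaving out 1 library at a time gave 1.68 to 1.83, 1.49 to 1.69, 1.47 to 1.66 and 0.70 to 0.80 for the 4 genes. A fit without ribosomal RNA genes, scaled by totals, was added after the data were seen and is among the 16.

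Over all genes, 668 were called higher and 810 lower. Library totals only gave 896 and 279, and moved the median log2 fold change over tested genes to 0.075. Fits without 1 library gave 359 to 644 higher and 471 to 790 lower genes, with 359 and 490 without siControl replicate 2 and 363 and 471 without siControl replicate 3. For the lists, leaving out 1 library gave 0 to 1 lower genes of the induction pathway, 1 to 2 higher interferon genes, and 0 to 1 higher and 0 to 1 lower eIF3 subunits. The interferon genes counted were not the same ones: IFNL1 was called in 0 of these 6 fits and IFNE in 3, while the rest were IFNL2 and IFNL3. These have 0 to 2 counts in each siControl library and enter only through their siALDOA counts, so nothing is read from their calls. With library totals only, 0 genes of the induction pathway and 0 eIF3 subunits were called lower. DESeq2 called 1 interferon gene higher and 2 eIF3 subunits lower, and with at least 10 counts in every library 1 interferon gene was called, since IFNL1 was not tested there. The other list counts stayed within 1.5 times their value in each alternative. Except for the filter on low counts, the cause of these changes was not tested.

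With the replicate number as a block, 987 genes were called higher and 1175 lower, and IFIT1 was at 1.76 (standard error 0.053). In the main fit, which has no block, the standard error of IFIT1 was 0.076. The deviations of libraries with the same number correlated at only 0.026 to 0.035 over genes. Each library nevertheless correlated best with its own number in the other group. Whether the libraries are paired was not tested.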
